A study of Mus musculus with 8 samples.

Results

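The genes of the Notch pathway described here are 4 receptors (Notch1, Notch2, Notch3 and Notch4), 4 ligands (Jag1, Jag2, Dll1 and Dll4) and 2 targets (Hes1 and Hey1). They are 10 of the 30222 gene or transcript names that the array's probes carry, and they were found by name as 13 probes of 39429, each treated on its own. RNA came from NMuMG-NT2197 mouse mammary epithelial cells transfected with a pMSCV/hygro vector, which carried a cDNA of ShcA R175Q in 4 samples and of wild-type ShcA in the other 4. ShcA is an adaptor that docks on activated receptor tyrosine kinases, and R175Q replaces an arginine of its PTB domain, which binds phosphotyrosine, with glutamine. Both groups share the cell line and the vector, and the labels do not say whether the cells' own ShcA was removed or whether a line is 1 clone. The samples were labelled with Cy3 and set on each array against one common Cy5 reference, with no dye swap, so each value is the log2 ratio of sample over reference.

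Notch receptors are transmembrane proteins that are activated by ligands of the Jagged and Delta families on neighbouring cells. Ligand binding lets ADAM proteases and then γ-secretase cut the receptor, and the freed intracellular part enters the nucleus, where it joins RBPJ and Mastermind proteins to activate targets such as Hes1 and Hey1, which encode repressors of transcription. In the mammary gland the pathway is known for its part in the fate of luminal cells. These arrays measure transcripts and not receptor cleavage.

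The probes that carry the comparison are shown by their first 30 of 60 bases, 5′ to 3′, as the files give them, because 3 of these genes are read by a single probe and the pairs for Notch1 and Dll1 read different places of their gene.
Jag2 A_51_P451338: ttgtataaattattcaacggctgtcaggcg
Dll1 A_51_P306017: gattactatgagccagtctttccttgaact
Dll1 A_55_P1986900: acactatccggaccccaattccccatttcc
Dll4 A_51_P384402: tttgcccagactccatcctcacagctgggc
Notch4 A_51_P195875: gttgatttcgagaatccctaaactctggaa
Notch1 A_55_P2171897: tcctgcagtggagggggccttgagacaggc
Notch1 A_55_P2047168: ttgcttctttccaaaatcgaaaagaaagaa
In the mm9 coordinates of the files, the Jag2 probe lies at chr12:114146887-114146946 on the minus strand. The Dll1 probes lie at chr17:15504623-15504682 and chr17:15513726-15513785, both on the minus strand, and the Dll4 probe at chr2:119160779-119160838 on the plus strand. The Notch4 probe lies at chr17:34725120-34725179 on the plus strand, and the Notch1 probes at chr2:26319440-26319499 and chr2:26314630-26314689, in the order shown, on the minus strand. No gene model was used to place the probes in exons.

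Of all spots, 52.3% to 61.3% stood well above background in Cy3 and 59.5% to 69.8% in Cy5, with none saturated. The 4 arrays per group limit the precision, and the labels do not say whether the replicates came from separate cultures. A p-value sets the difference between the groups against the spread within them, which may be only technical. Of 8 luminal epithelial marker genes, 6 (Cdh1, Epcam, Krt7, Krt8, Krt18 and Krt19) were above background on all 8 arrays. Cldn3 was above it on none, and the probes of Cldn4 on 0 and 1 arrays. Above background on all 8 arrays were also 4 of 5 basal, 6 of 7 fibroblast and 7 of 8 macrophage marker genes. These counts therefore do not single out a cell type. Shc1, which encodes ShcA, differed by −0.11 ± 0.10 (SE, limma adjusted p = 0.526), and whether its probe reads the transfected cDNA was not determined.

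R175Q cells had more Jag2 and Dll1 transcript than wild-type cells, by 1.67-fold and 1.66-fold. The size for Dll1 depended more on the processing. Its log2 difference was 0.33 to 1.055 over the alternatives, against 0.58 to 0.85 for Jag2. With the saddle-point background of limma the Dll1 probe was not called (limma adjusted p = 0.101). Dll4 was also called, as lower in R175Q, but its probe was well above background on 1 of 4 R175Q arrays and the difference was −0.09 (limma adjusted p = 0.495) with the saddle-point background of limma. The Notch4 probe was also higher, by a smaller amount that depends on the processing. Probes for Notch1, Notch2, Jag1, Hes1 and Hey1 did not pass the test, and the Notch3 probe and 1 of the Dll1 probes were too dim in the sample channel to be tested. In all, 11 of the 13 probes, from 9 genes, passed the filter on dim probes (Cy3 well above background on at least 4 of the 8 arrays), and 4 of the 11 had an adjusted p under 0.05 in limma's moderated test, 3 higher and 1 lower. The values of the groups did not overlap for the same 4 probes, beside 23.3% of all probes tested. Of the 22965 probes tested in all, 18.6% were called, 8.92% higher and 9.64% lower in R175Q, so that calls were common on these arrays and 4 of 11 is a count of few probes. The median difference was −0.0020 over the 11 probes and −0.016 over all probes. With the log ratios of each array centred on their median in place of loess, the split of all calls was 2165 higher and 1510 lower, against 2049 higher and 2214 lower.

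**Figure D1:**
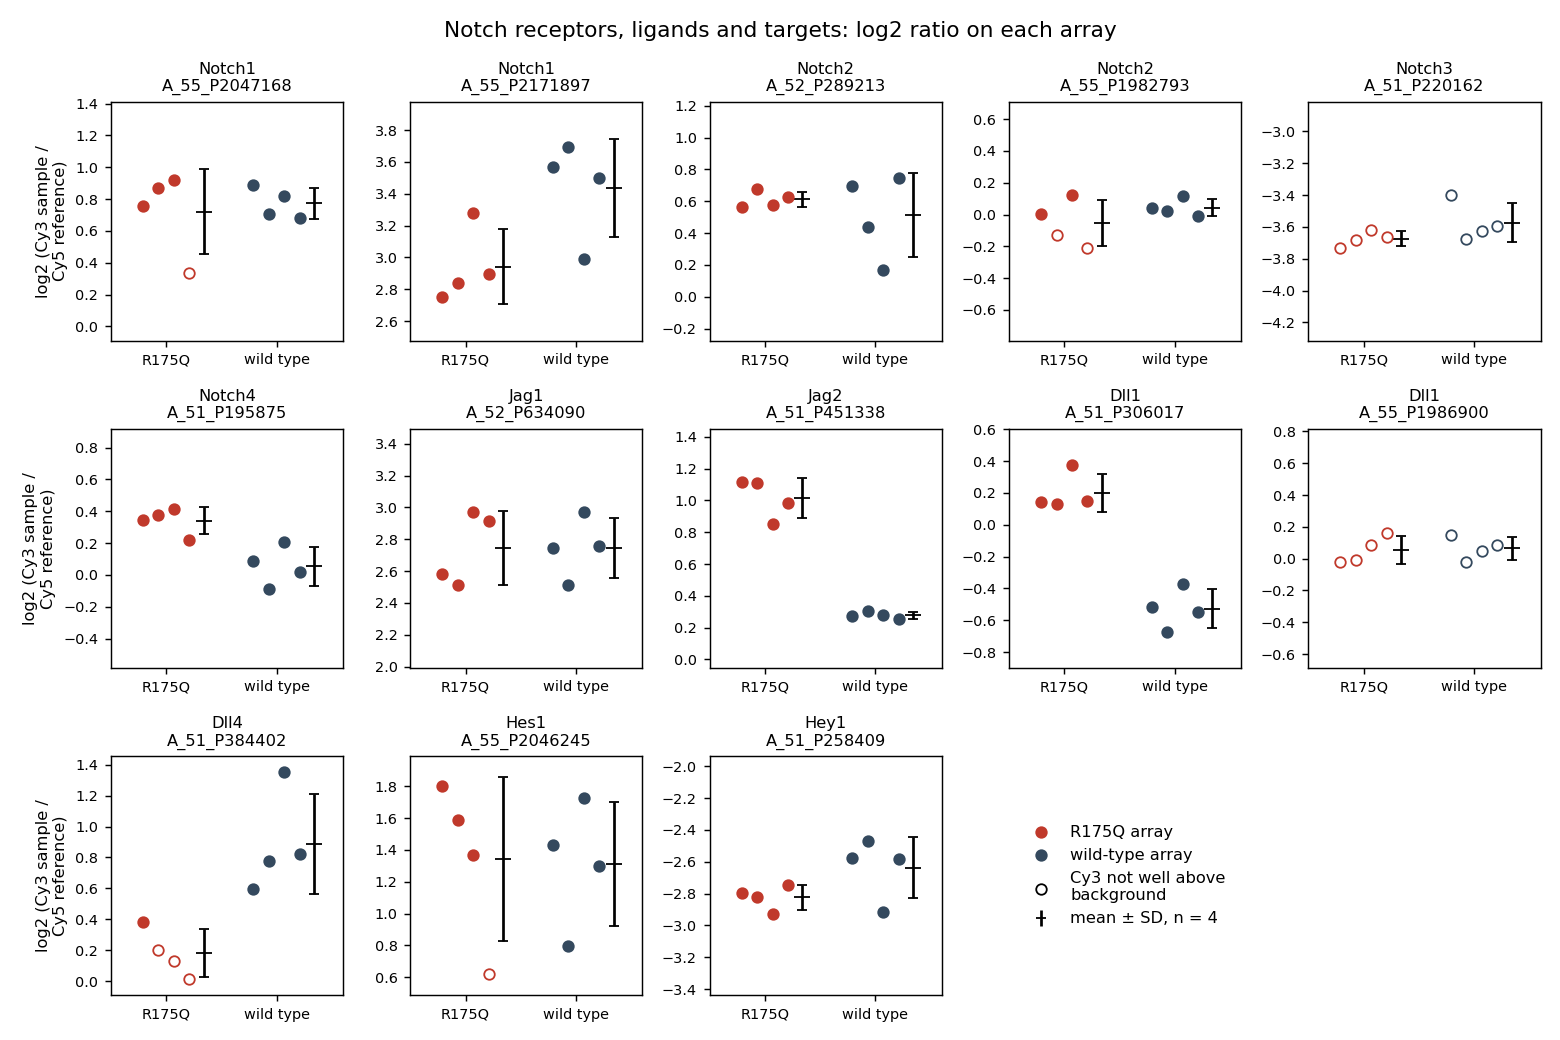
Log2 ratio of sample (Cy3) over reference (Cy5) of each of the 13 probes, 1 point per array, R175Q at the left and wild type at the right of each panel, with the mean and SD of 4 arrays. Open points mark arrays on which Cy3 was not well above background. The groups stand apart in the panels of Jag2, Dll1 A_51_P306017, Notch4 and Dll4, the last with open points on 3 of 4 R175Q arrays.

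Jag2 encodes a Jagged-family ligand. Its log2 ratio was 1.12, 1.11, 0.85 and 0.98 on R175Q arrays 1 to 4, and 0.27, 0.31, 0.28 and 0.26 on wild-type arrays 1 to 4. Every R175Q array stood above every wild-type array, and the wild-type arrays lay close together. The difference was 0.74 ± 0.07 on the log2 scale (SE, n = 4 per group, 95% interval 0.59 to 0.89, limma adjusted p = 6.37e-05). The same is seen in the sample channel before normalization, where the spot stood 904 to 1359 units above its local background on R175Q arrays and 496 to 608 on wild-type arrays, while the reference channel spanned 777 to 1013 over all 8. Within the 3 slides that held both groups, the R175Q array was higher by 0.84, 0.56 and 0.73. With limma's saddle-point background the Jag2 difference was 0.63 (adjusted p = 0.026), and 3.96% of all probes were called. With slide as a fixed block, where 13.6% were called, it was 0.69 (adjusted p = 0.00204).

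Dll1 encodes a Delta-family ligand. The probe A_51_P306017, printed 10 times on each array and averaged, had log2 ratios of 0.15, 0.13, 0.38 and 0.15 on R175Q arrays, against −0.52, −0.67, −0.38 and −0.55 on wild-type arrays. The groups did not overlap, and the third R175Q array lay above the other R175Q arrays, which were close to each other. The difference was 0.73 ± 0.08 (SE, n = 4 per group, 95% interval 0.55 to 0.91, limma adjusted p = 0.00021). Above local background, Cy3 was 160 to 192 units on R175Q arrays and 74.3 to 104 units on wild-type arrays. The R175Q array was higher by 0.65, 0.90 and 0.70 within slides 2, 3 and 4. With the saddle-point background the difference fell to 0.33 and missed the threshold (adjusted p = 0.101). In the scanner's processed signals, which have another background, dye normalization and offset, the difference was larger, at 1.055 (limma adjusted p = 0.0014). The second Dll1 probe, A_55_P1986900, was not well above background on any array in either channel, so it says nothing on the direction of the first.

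Dll4, another Delta-family ligand, known for its role in endothelial cells, had log2 ratios of 0.39, 0.20, 0.13 and 0.02 on R175Q arrays and 0.60, 0.78, 1.35 and 0.82 on wild-type arrays. All 4 R175Q values lay below all wild-type values, with wild-type array 3 the highest. The difference was −0.70 ± 0.15 (SE, n = 4 per group, 95% interval −1.03 to −0.38, limma adjusted p = 0.00842). The spot was dim: Cy3 was well above background on 1 of 4 R175Q arrays and 4 of 4 wild-type arrays, so the 4 wild-type arrays alone brought the probe past the filter. Cy3 stood 30.8 to 41.9 units above local background on R175Q arrays and 48.9 to 86.6 on wild-type arrays, against a median of 13.1 to 22.7 for the negative control spots. The size of the difference varied with the processing. It was −1.59 (adjusted p = 0.00924) in the scanner's processed signals, which differ in background, dye normalization and offset, −0.80 (adjusted p = 0.00066) in the authors' deposited table of log2 values, −0.65 (adjusted p = 0.00992) with no background correction, and −0.09 with the saddle-point background. Within slides it was −0.40, −0.93 and −0.81.

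Jag1, the other Jagged-family ligand, had log2 ratios of 2.58, 2.51, 2.97 and 2.91 on R175Q arrays, against 2.74, 2.51, 2.97 and 2.76 on wild-type arrays. The groups overlapped over nearly the whole range, although the spot was well above background on all 8 arrays. Its difference was −0.002 ± 0.125 (SE, limma adjusted p = 0.993, 95% interval −0.28 to 0.28), an interval that leaves out a change of the size measured for Jag2. Set directly against each other, the differences of Jag2 and Jag1 were 0.74 apart and missed the threshold (exact permutation p = 0.0286, adjusted 0.0571 over 4 contrasts). Those of Dll1 and Dll4 were 1.43 apart, with the same p-values. The smallest p that 70 assignments of the arrays can give is 0.0286.

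**Figure D2:**
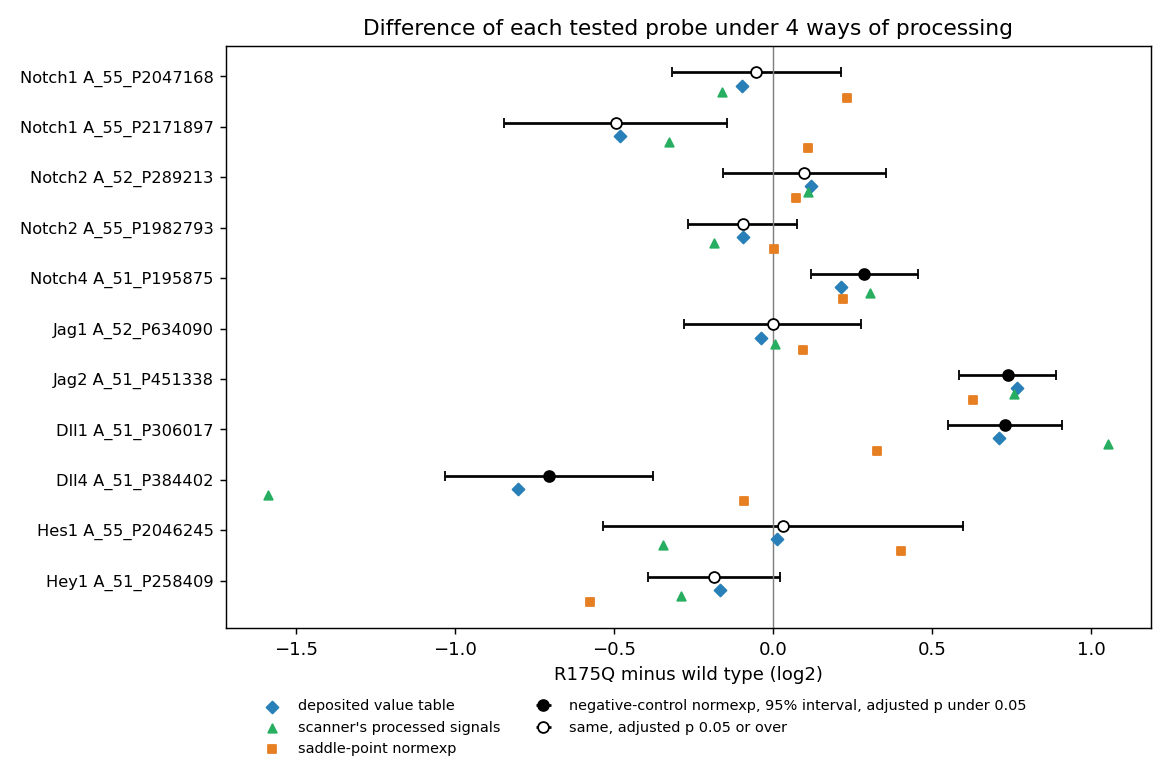
Difference of each of the 11 tested probes, R175Q minus wild type on the log2 scale, with its 95% interval in black (filled where the adjusted p was under 0.05) and, as coloured marks, the same difference in the deposited table, in the scanner's processed signals and with the saddle-point background. Jag2 stays between 0.63 and 0.77 in all 4, while Dll4 runs from −1.59 to −0.09, and both Notch1 probes, Notch2 A_55_P1982793, Jag1 and Hes1 change sign.

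Among the receptors, Notch4, known mainly from endothelium, had log2 ratios of 0.35, 0.38, 0.42 and 0.22 on R175Q arrays and 0.08, −0.09, 0.21 and 0.02 on wild-type arrays. The groups did not overlap, but the lowest R175Q array and the highest wild-type array were nearly level. The difference was 0.29 ± 0.08, or 1.22-fold (SE, n = 4 per group, limma adjusted p = 0.0251). The call is fragile: it was lost in 13 of 26 alternatives, among them slide as a fixed block (0.29, adjusted p = 0.0759), the authors' deposited table (0.21, adjusted p = 0.102) and the saddle-point background (0.22, adjusted p = 0.175). It was also lost with the mean and SD of the negative controls in place of their median and spread (0.27, adjusted p = 0.0546), the setting first used, which was replaced after the results for these probes had been seen.

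Notch1, a receptor with a known part in mammary cell fate, was read by a pair of probes. A_55_P2171897, well above background on all arrays, had log2 ratios of 2.75, 2.84, 3.28 and 2.90 on R175Q arrays, against 3.57, 3.69, 2.99 and 3.50 on wild-type arrays. Array 3 of each group stood apart from its fellows and made the groups overlap. The difference was −0.49 ± 0.16 (SE, n = 4 per group, limma adjusted p = 0.0546), just outside the threshold. Without wild-type array 3 it was −0.64 (adjusted p = 0.00588), without R175Q array 3 it was −0.61 (adjusted p = 0.0264), and with the mean and SD of the negative controls −0.52 (adjusted p = 0.0323). With the saddle-point background the sign turned, at 0.11 ± 0.52 (SE, adjusted p = 0.924).

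The second Notch1 probe, A_55_P2047168, was dim, above background on 3 of 4 R175Q arrays and 4 of 4 wild-type arrays. Its log2 ratio was 0.34 to 0.92 over the R175Q arrays and 0.68 to 0.89 over the wild-type arrays, and the difference was −0.05 ± 0.12 (SE, limma adjusted p = 0.818). The differences of both Notch1 probes were 0.44 apart, which did not pass an exact two-sided permutation test (p = 0.114, adjusted 0.152 over 4 contrasts, which were chosen after the values were seen).

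Notch2 was also read by a pair of probes. A_52_P289213, at chr3:97953914-97953973, had log2 ratios of 0.57 to 0.68 on R175Q arrays and 0.17 to 0.75 on wild-type arrays, with a difference of 0.10 ± 0.11 (SE, limma adjusted p = 0.624). A_55_P1982793, at chr3:97951233-97951292, had −0.21 to 0.12 on R175Q arrays and −0.01 to 0.12 on wild-type arrays, with a difference of −0.10 ± 0.08 (SE, adjusted p = 0.449). The probes had opposite signs, neither passed, and the gap of 0.19 between them did not pass either (exact p = 0.371).

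Notch3 could not be tested. Its probe, at chr17:32257848-32257907, was not well above background in Cy3 on any of the 8 arrays, with at most 36.6 units above local background, against negative control medians of 13.1 to 22.7, while the Cy5 reference was well above it on all 8, with 1420 to 1636 units. The log2 ratio was −3.73 to −3.62 on R175Q arrays and −3.68 to −3.40 on wild-type arrays. The same spot was thus well above background in the reference RNA.

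Neither target passed the test, and both moved with the processing. Hes1 had log2 ratios of 1.80, 1.59, 1.37 and 0.62 on R175Q arrays and 1.43, 0.80, 1.73 and 1.30 on wild-type arrays. The spread within each group was wide, and the difference was 0.03 ± 0.25 (SE, limma adjusted p = 0.953, 95% interval −0.54 to 0.60), so that a change of the size of that in Jag2 lies outside the interval but a change of 0.5 in either direction does not. Hes1 was above background on 3 of 4 R175Q arrays and 4 of 4 wild-type arrays. With the saddle-point background its difference was 0.40 (adjusted p = 0.416), and 0.61 (adjusted p = 0.0421) when the fourth R175Q array was also left out, while it was −0.35 (adjusted p = 0.643) in the scanner's processed signals. Hey1 had −2.79, −2.82, −2.93 and −2.75 on R175Q arrays, against −2.58, −2.47, −2.92 and −2.58 on wild-type arrays. The third wild-type array lay among the R175Q values, and the difference was −0.19 ± 0.09 (SE, adjusted p = 0.213). Without that array it was −0.28 (limma adjusted p = 0.0126), and with arrayWeights −0.23 (adjusted p = 0.00573). With the saddle-point background it was −0.58 (adjusted p = 0.496), and −0.96 (adjusted p = 0.0492) without the fourth R175Q array.

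**Figure D3:**
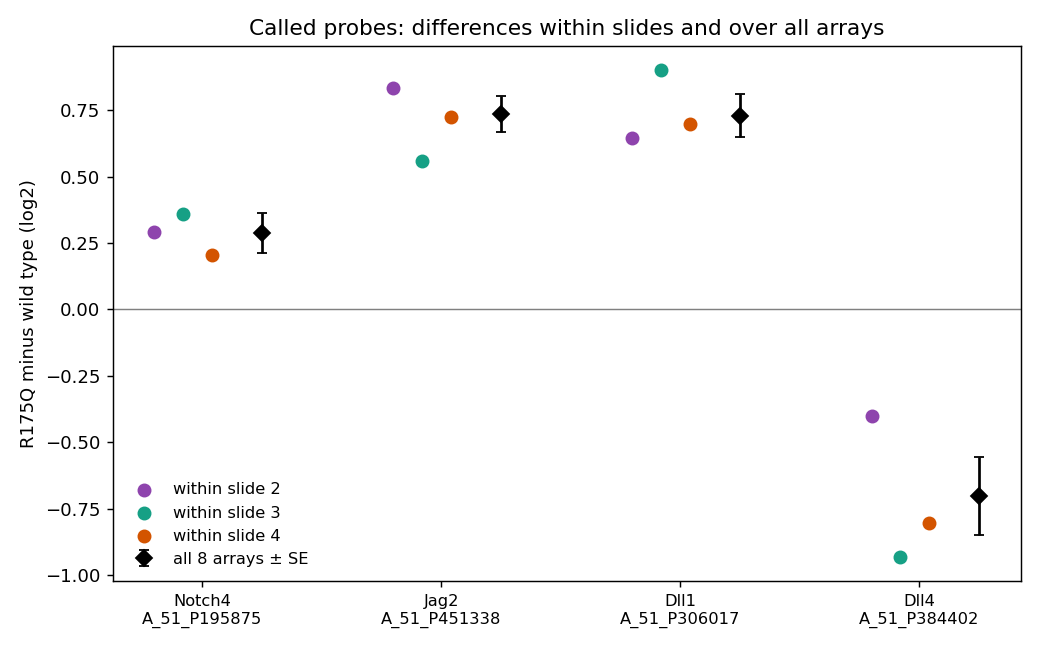
Differences of the 4 called probes, R175Q minus wild type on the log2 scale, within each slide that held arrays of both groups (coloured points, slides 2, 3 and 4, each with 1 R175Q array and 1 or 2 wild-type arrays) and over all 8 arrays with its SE (black). Each probe keeps its sign on all 3 slides, which follows from the groups not overlapping for these 4 probes and is no separate check.

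The other genes of the pathway were taken from 6 lists of 65 genes. Of their 93 tested probes, from 59 genes, 8 were higher and 5 lower in R175Q, or 14%, beside 18.6% of all probes, with a median difference of 0.0017. This count fell to 1 with the saddle-point background and to 8 with slide as a fixed block, and it was 22 without wild-type array 3 and 6 to 8 without any one of the others.

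Among genes that modify or carry ligands and receptors, 2 of 20 probes were higher and 2 lower. Both higher ones read Neurl1a, a ubiquitin ligase of the Neuralized family that acts on ligands (0.36 ± 0.09 and 0.35 ± 0.10, SE, limma adjusted p = 0.0202 and 0.0406). The lower ones read Aak1, a kinase of endocytosis (−0.28, adjusted p = 0.00492), and Pofut1, which adds fucose to Notch receptors (−0.20, adjusted p = 0.0316). Other tested probes of the last genes did not pass, with differences of −0.12 and 0.09 for Aak1 and 0.13 for Pofut1. The groups did not overlap for this second Pofut1 probe either, and its sign was opposite (limma unadjusted p = 0.0215, adjusted p = 0.0907).

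Among the proteases that cut the receptor, 2 of 12 probes were lower and none higher by limma's adjusted p, though both probes of Psenen, a γ-secretase subunit, were at 0.13 and 0.14 with unadjusted p = 0.0319 and 0.0436. The lower ones read Psen2, a catalytic subunit of γ-secretase (−0.36 ± 0.06, SE, limma adjusted p = 0.00233), and Aph1b, another of its subunits (−0.21, adjusted p = 0.0482), for which a second tested probe differed by 0.02. In the nuclear complex 2 of 25 probes were higher, from Maml1 and Maml3, which encode Mastermind coactivators (0.27 and 0.20, adjusted p = 0.0405 and 0.0402). A second tested Maml3 probe differed by 0.02 (adjusted p = 0.916), and both probes of Maml2, the other Mastermind gene, had the opposite sign (−0.21 and −0.17, unadjusted p = 0.0308 and 0.0446 in limma) and did not pass. Both probes of Rbpj, the DNA-binding protein of the complex, differed by 0.32 and missed the threshold (adjusted p = 0.0528 and 0.072).

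Regulators of the receptor's intracellular part had 2 of 14 probes higher and 1 lower. The higher ones read Dtx3l, a Deltex-family ubiquitin ligase (0.54 ± 0.09, SE, limma adjusted p = 0.00291), and Sel1l (0.30, adjusted p = 0.00975), and the lower one read Cdk8, a kinase of the Mediator complex (−0.19, adjusted p = 0.0312). Other tested Dtx3l probes had smaller differences and did not pass, at 0.21 and 0.18 (adjusted p = 0.0771 and 0.355). Other Cdk8 probes, at −0.19 and −0.19, did not pass either (adjusted p = 0.132 and 0.146). Of 15 probes of other targets 2 were higher, from the transcription factors Sox9 (0.58 ± 0.14, adjusted p = 0.0165) and Bhlhe40 (0.50 ± 0.13, adjusted p = 0.0214). Hes7 differed by −0.27 (adjusted p = 0.0576), and 1 of 3 probes of Cdkn1a, an inhibitor of the cell cycle, by −0.33 (adjusted p = 0.0639), with the others at −0.09 and −0.06. Nrarp, a target that feeds back on the receptor, differed by −0.15 (adjusted p = 0.274), Myc by 0.14 (adjusted p = 0.533) and Hes6 by 0.17 (adjusted p = 0.0857). The Heyl and Hes5 probes were not well above background on any array. The probes of other ligands numbered 7, and none passed by limma's adjusted p. A Dlk1 probe at −0.14 had the lowest p in limma's test (unadjusted p = 0.0426, adjusted p = 0.146), and the others exceeded 0.05 before adjustment.

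**Figure D4:**
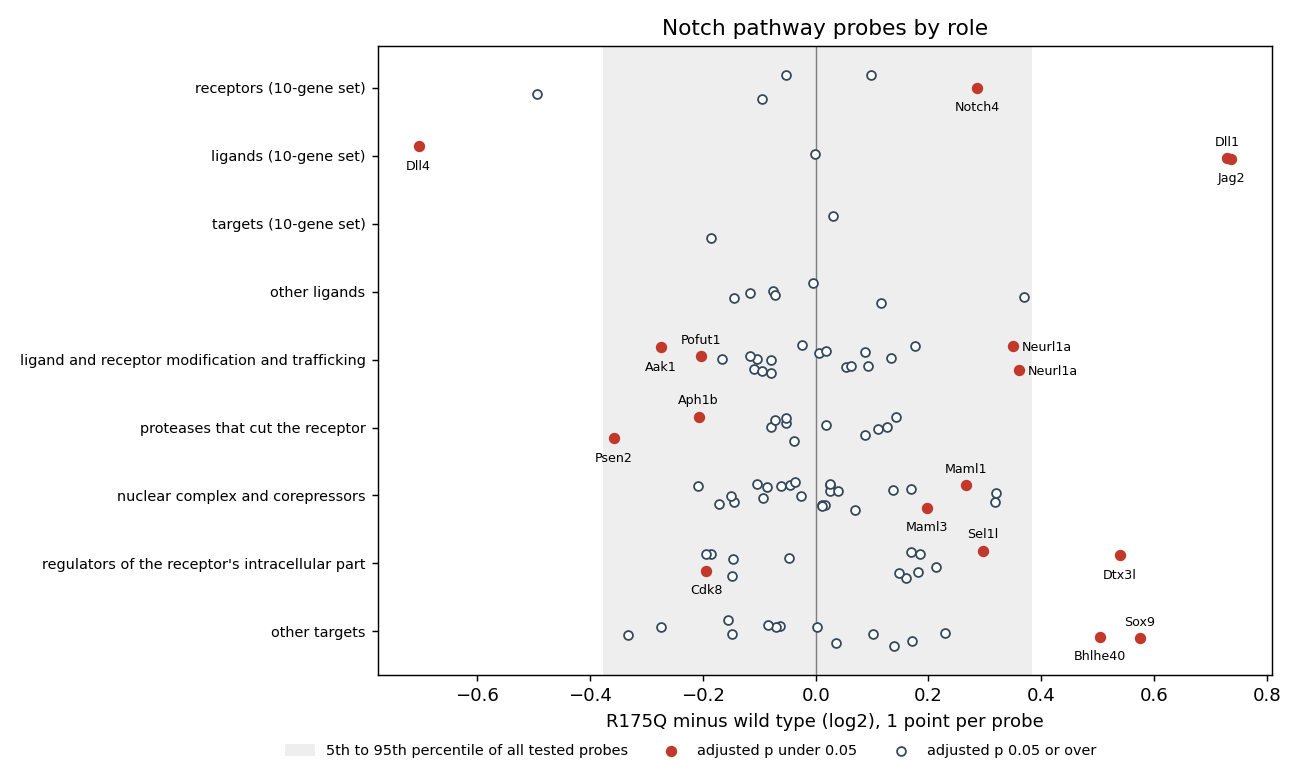
Difference of every tested probe of the pathway, R175Q minus wild type on the log2 scale, by role. Filled points had an adjusted p under 0.05 and are named, and the grey band spans the 5th to 95th percentile of all tested probes, −0.38 to 0.38. Jag2 and Dll1 lie to its right with a Dtx3l probe, Sox9 and Bhlhe40, and Dll4 lies to its left with a Notch1 probe that was not called.

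The summed markers of endothelium, pericytes and fibroblasts differed between the groups, while those of basal cells, macrophages and lymphocytes overlapped. The RNA came from a cultured cell line, so these sums are levels of the listed genes and not shares of cell types. In bulk RNA, more transcript per cell and more cells with that transcript cannot be told apart. Of 10 endothelial marker genes, which bear on Notch4 and Dll4, 6 (Cdh5, Cldn5, Emcn, Esam, Tek and Tie1) were not above background on any array, while both Vwf probes were higher in R175Q (0.85 and 0.51, limma adjusted p = 0.00028 and 0.0321). The other tested endothelial probes did not pass, with differences of −0.14 for Pecam1, −0.05 for Kdr and 0.12 for Egfl7. The summed endothelial level was 16.01 to 17.58 parts per 1000000 of the Cy3 signal on R175Q arrays and 13.76 to 15.32 on wild-type arrays. One of these genes, Egfl7, is also among the other ligands above.

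The summed level of the 5 pericyte markers was 5.14 to 6.82 parts per 1000000 on R175Q arrays and 2.30 to 3.16 on wild-type arrays, with Pdgfrb higher by 1.19 (limma adjusted p = 4.78e-05) and Rgs5 and Kcnj8 not above background on any array. Cspg4, the other tested pericyte gene, differed by 0.04 (adjusted p = 0.807). Des, too dim to be tested, had a mean log2 ratio of −4.51 in R175Q and −4.34 in wild type. Fibroblast markers summed to 8.97 to 12.1 parts per 1000000 in R175Q and 6.48 to 8.46 in wild type, with Dcn, Col1a2 and Col3a1 higher by 0.72, 0.58 and 0.39 and Lum above background on none. The other tested fibroblast probes did not pass, at 0.25 for Pdgfra, 0.08 for Col1a1 and −0.015 for Thy1 (limma adjusted p = 0.109, 0.709 and 0.892). Luminal markers summed to 2112 to 2202 parts per 1000000 in R175Q, against 2563 to 2793 in wild type, with 4 of 7 tested probes lower, the furthest being Krt7 at −1.89 (adjusted p = 1.52e-07). Basal, macrophage and lymphocyte sums overlapped between the groups, and of 11 tested macrophage probes 1 was called, that of Mrc1, at −0.59 (adjusted p = 0.00166). Both Cd68 probes had the opposite sign, at 0.45 and 0.55, and did not pass (adjusted p = 0.152 and 0.157). The part of these markers in the ligand differences was not tested.

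The probes whose deviations over the 8 arrays were nearest to those of Jag2, by root mean square difference among 17290 probes of other named genes, were those of Tspan32 (0.054), Cryba4 (0.065) and Pstpip1 (0.066). The nearest to Dll1 A_51_P306017 were those of Mitf (0.039), Dnaja4 (0.050) and Mxd1 (0.052). This likeness includes the group difference itself, which was 0.67 to 0.78 in all 6.

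In the RefSeq upstream sequences of the GRCm38.p6 build, 9 windows of 250 bases matched 8 of the 10 genes, the receptors and ligands. The targets Hes1 and Hey1 had no window and were not searched. Of these, 0 held TGGGAA, the core of the site that RBPJ binds, on either strand, while 21.6% of 32851 such windows did. The statement covers these letters in these windows alone.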

How the data were processed

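Spots were read by Agilent Feature Extraction 9.5.3.1, per the file headers, as the mean and local background intensity of each spot, processed intensities after dye normalization and a log10 ratio. The authors' deposited table appears to be log2 of Cy3 over Cy5, since its correlation with the scanner's ratio was 0.900 to 0.939; its column medians were 0.0524 to 0.0617, and its scaling and centring are not stated. Per the labels' protocols, RNA went through repeated linear amplification; they call the material microdissected while describing cultured cells, and name the reference as mouse in one field and human in another.

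Each array held 44397 spots, 1377 of them controls. Mean minus local background signals were corrected by normexp with the median and MAD of the 153 negative control spots of each array and an offset of 50, which shrinks differences of dim probes, then by loess within arrays (limma 3.58.1, R 4.3.3). The limma saddle-point fit, an alternative, put the Cy3 background of an array at −690 to −0.369 units, against negative control medians of 13.1 to 22.7. Spots of a probe were averaged, and outlier-flagged spots set to missing, which touched 118 of the 22965 probes tested. The filter was Cy3 well above background on at least 4 arrays, with 3 usable arrays per group. R175Q was compared with wild type by lmFit and eBayes (two-sided), adjusted by Benjamini and Hochberg's method over all probes and a threshold of 0.05. Single contrasts used exact permutation over 70 assignments of the arrays.

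Every member probe is named, with up to 5 called probes of each pathway list by lowest p and the 3 nearest probes to Jag2 and Dll1; other list genes, the markers among them, were named after their values were seen. The genes, lists, tests and negative-control background were chosen with earlier results of these data known. Median and MAD replaced mean and SD, because 1 negative spot of a wild-type array was far brighter than the rest, after the members' results had been seen. Alternatives covered background, normalization, channel, source, filter, variance model, weights, blocks and left-out arrays; those with scan day, with the mean and SD, and with a second change beside the saddle-point fit were added after seeing the data. Marker levels are sums of Cy3 of each gene's brightest probe, in parts per 1000000 of an array's total. The procedure was tested on simulated data. Names of probes are those of the files.

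The labels do not say whether a replicate number marks a shared origin. Deviations of same-numbered arrays correlated at 0.302, 0.018, 0.552 and 0.115, so not every pair exceeded 0.1, and the replicate number was kept out of the fit.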

Additional observations from a re-analysis of the deposited data

Results flagged for a closer look

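The third R175Q array had a Dll1 A_51_P306017 log2 ratio of 0.377, far from the other R175Q arrays at 0.131 to 0.149. Its gap to the nearest of them was 0.928 of the group's range. Chance alone marks about 1 in 20 groups this way, and 26 groups were examined. This array is the highest of the higher group, so leaving it out could not make the groups overlap. Without it the difference was 0.67 (limma adjusted p = 0.00063).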

How the results depend on the processing

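Jag2 was called in 25 of 26 alternatives, with differences of 0.58 to 0.85, Dll1 in 23 of 26 and Dll4 in 22 of 25. The filter on all 8 arrays left the Dll4 probe untested, with 3 member probes called. The main filter was met for Dll4 by the 4 wild-type arrays alone, so its count is weaker than those of Jag2 and Dll1. All the fits in which these calls were lost lay among those on the saddle-point background. The number of member probes called, 4, was 1 with that background, 0 with it and slide as a fixed block (Jag2 then 0.58, adjusted p = 0.244), and 4 with it and without the fourth R175Q array, where the probes called were those of Jag2, Notch4, Hes1 (0.61) and Hey1 (−0.96). It was 6 with arrayWeights and 3 to 6 with an array left out. The number of all probes called, 4263, was 910, 1 and, without the fourth R175Q array, 1965 on that background, 8567 with arrayWeights, and 2965 to 5227 with an array left out. The pathway count, 13, was 1, 0 and 4 in these saddle-point fits, 33 with arrayWeights, 8 with Cy3 alone, 8 with slide in the fit, and 6 to 22 with an array left out. With the replicate number as a block, member calls stayed at 4 and all calls were 5110; whether the numbers pair the arrays is not shown.

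The sign turned for probes that were not called. On the saddle-point background, without the fourth R175Q array and with slide as a block, Notch1 A_55_P2047168 was 0.23, 0.35 and 0.31, Notch1 A_55_P2171897 was 0.11, 0.46 and 0.37, Notch2 A_55_P1982793 was 0.0019, 0.011 and 0.012, and Jag1 was 0.094, 0.29 and 0.17. Median centring gave 0.0059 for Notch1 A_55_P2047168 and 0.054 for Jag1, and the mean and SD of the negative controls 0.038 for that Notch1 probe. Jag1 was also 0.0062 in the scanner's signals, 0.036 with scaling between arrays, 0.069 and 0.0090 with slide as a fixed and random block and 0.070 with scan day. Hes1, at 0.40, 0.61 and 0.47 in the saddle-point fits, was −0.35 in the scanner's signals, −0.037 with Cy3 alone, −0.12 with slide and −0.15 with scan day as a fixed block. Notch2 A_52_P289213 was −0.047 with arrayWeights. With an array left out, the ranges were −0.12 to 0.075 for Notch1 A_55_P2047168, −0.016 to 0.18 for Notch2 A_52_P289213, −0.081 to 0.075 for Jag1 and −0.14 to 0.27 for Hes1. The causes were not tested. Signal over background limits Dll4, Hes1 and the dim Notch1 and Notch2 probes.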
